A study of Mus musculus with 11 samples.

Results

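The genes described here are 38 interferon-induced genes of the mouse, listed by symbol, out of 24411 genes with read counts. They were chosen by name, as textbook members of the antiviral programme, with earlier results of these data known. They were kept where they reached a CPM of 1 (counts scaled to a common library size) in 3 or more of the 11 libraries. All 38 passed that rule, and all 38 were among the 16011 genes tested. RNA had been sequenced from lung mesenchymal cells of C57BL6 mice, sorted by flow cytometry as lacking EpCAM, CD45 and CD31, the surface markers of epithelial, blood and endothelial cells. The mice had undergone pneumonectomy (PNX), the removal of lung tissue after which the remaining lung grows, or a sham operation. The 4 groups were sham at day 7 (3 libraries), PNX at day 7 (3 libraries), sham at day 14 (2 libraries) and PNX at day 14 (3 libraries). All were of 1 strain with no other allele or agent named. The labels give no age, and they do not say whether each library came from its own animal, and the p-values then cover only variation from library to library, which may be technical.

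Interferons are secreted proteins that warn cells of infection. Type I interferons bind the receptor of Ifnar1 and Ifnar2, whose kinases Jak1 and Tyk2 activate a transcription factor complex that holds STAT2 and IRF9 and binds the interferon-stimulated response element in promoters. Interferon gamma acts through another receptor and through the gamma-activated site. The induced genes code for sensors of viral RNA and DNA, for enzymes and restriction factors that block viral growth, for GTPases that attack the membranes around intracellular microbes, and for the machinery that loads peptides on class I molecules. Fibroblasts respond to both kinds of interferon, and many of these genes have a basal level set by low interferon signalling.

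The promoters of some of the members show the letters that this complex reads. RefSeq windows of 250 bases before to 50 bases after the start (GRCm38.p6) were at hand for 29 of the 38 members. The response element was searched on both strands as GAAANNGAAA, which reads TTTCNNTTTC on the other strand. It was found in 15 of the 29 members (51.7%) and in 1079 of all 27025 genes with such a window (3.99%). The gamma-activated site, searched as TTCNNNGAA, was found in 8 of the 29 members (27.6%) and in 9.55% of those 27025 genes. Such a match is a description of the letters and is no evidence of binding. The 7 stretches that follow lie before the start of members that are described further on. They are shown because they let the spacing, orientation and overlap of the element be compared, with the element in capitals and the rest in lower case, each written 5′ to 3′ along its gene's strand.
Isg15, chr4:156200860-156200911, minus strand: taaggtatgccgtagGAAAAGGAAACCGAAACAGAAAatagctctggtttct
Oas1a, chr5:120907526-120907560, minus strand: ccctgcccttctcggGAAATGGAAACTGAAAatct
Oas3, chr5:120777710-120777749, minus strand: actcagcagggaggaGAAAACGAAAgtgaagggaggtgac
Rsad2, chr12:26456548-26456587, minus strand: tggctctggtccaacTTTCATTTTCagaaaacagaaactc
Bst2, chr8:71537572-71537617, minus strand: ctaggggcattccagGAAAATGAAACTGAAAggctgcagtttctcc
Ifit1, chr19:34640770-34640828, plus strand: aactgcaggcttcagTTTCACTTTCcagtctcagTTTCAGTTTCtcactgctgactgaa
Ifit3, chr19:34583358-34583431, plus strand: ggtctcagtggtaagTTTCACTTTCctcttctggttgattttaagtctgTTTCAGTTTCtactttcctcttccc
In Isg15, 3 matches overlapped as a ladder of GAAA repeats, the first beginning 78 bases and the last 66 bases before the start. Oas1a and Bst2 each held 2 overlapping matches, from 20 and from 130 bases before the start. Ifit1 and Ifit3 each held 2 separate matches on the opposite strand, and Rsad2 held 1 match on that strand, 120 bases before the start. Bst2, Oas1a, Gbp7 and Igtp held both elements. The windows of Irf7 and Ifi44 held no match to the response element in these letters, which says nothing of sites elsewhere or of other spellings.

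The libraries held between 2539628 and 9008592 counts. Levels are given as CPM scaled by TMM factors, a correction for differences in RNA composition. Counts on 1455 olfactory and vomeronasal receptor genes, taken here as a measure of background, made up 89.9 to 1606 CPM. They were highest in sham day 14 replicate 1 and in replicate 2 of both day 7 groups. No count on 4 Y-linked genes was found in sham replicate 3 of day 7, in sham replicate 1 of day 14, or in replicates 2 and 3 of PNX at day 14. The 8 mesenchymal markers summed to 7032 to 28853 CPM, and all were present in every library. Haematopoietic markers, which the CD45 gate should remove, had counts for 10 of 10 genes. Their sum ranged from 40.5 to 129 CPM in sham day 7, from 37.1 to 79.4 in PNX day 7, from 227 to 355 in sham day 14 and from 75.9 to 82.5 in PNX day 14. Epithelial markers, which the EpCAM gate should remove, were also present. At day 7 they summed to 32.6 to 11538 CPM in sham and 433 to 1637 CPM in PNX. At day 14 their sums were 2590 to 9962 CPM in sham and 6740 to 16681 CPM in PNX, mostly from Sftpc. Endothelial markers summed to 32.4 to 971 CPM over all libraries, and red cell markers to 253 to 84763 CPM. In bulk RNA, fewer cells of a type and less RNA per cell cannot be told apart.

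Per kilobase of exon, the members spanned a wide range of basal levels. Ifi27l2a, which codes for a small membrane protein strongly induced by type I interferon, was highest, with a median of 219 CPM per kb over the 11 libraries. Gbp2 followed with 122 and Bst2 with 105 CPM per kb. Oas3 was lowest at 0.186 CPM per kb, with 2 to 22 counts in a library, below Mx1 at 0.505 and Oasl1 at 0.772 CPM per kb. The levels of neighbours in this order overlapped between libraries. Mx1 carries a disabling deletion in C57BL/6 and most other inbred mice.

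Single libraries stood out across many of the members at once. PNX day 7 replicate 3 was the highest of its group in 32 of the 38 members (84.2%), against 44.0% of all genes, and it was the highest of all 11 libraries in 20. Sham day 14 replicate 2 was the higher of its pair in 32 members (84.2%, against 56.7% of all genes). Sham day 7 replicate 1 was the highest of its group in 26 members (68.4%, against 31.9%), whereas PNX day 14 replicate 1 was the lowest of its group in 22 (57.9%, against 29.4%). The summed level of the 38 genes was 3702 CPM in PNX day 7 replicate 3 and 3670 CPM in sham day 14 replicate 2. In the other 9 libraries it lay between 1461 and 2446 CPM.

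**Figure D1:**
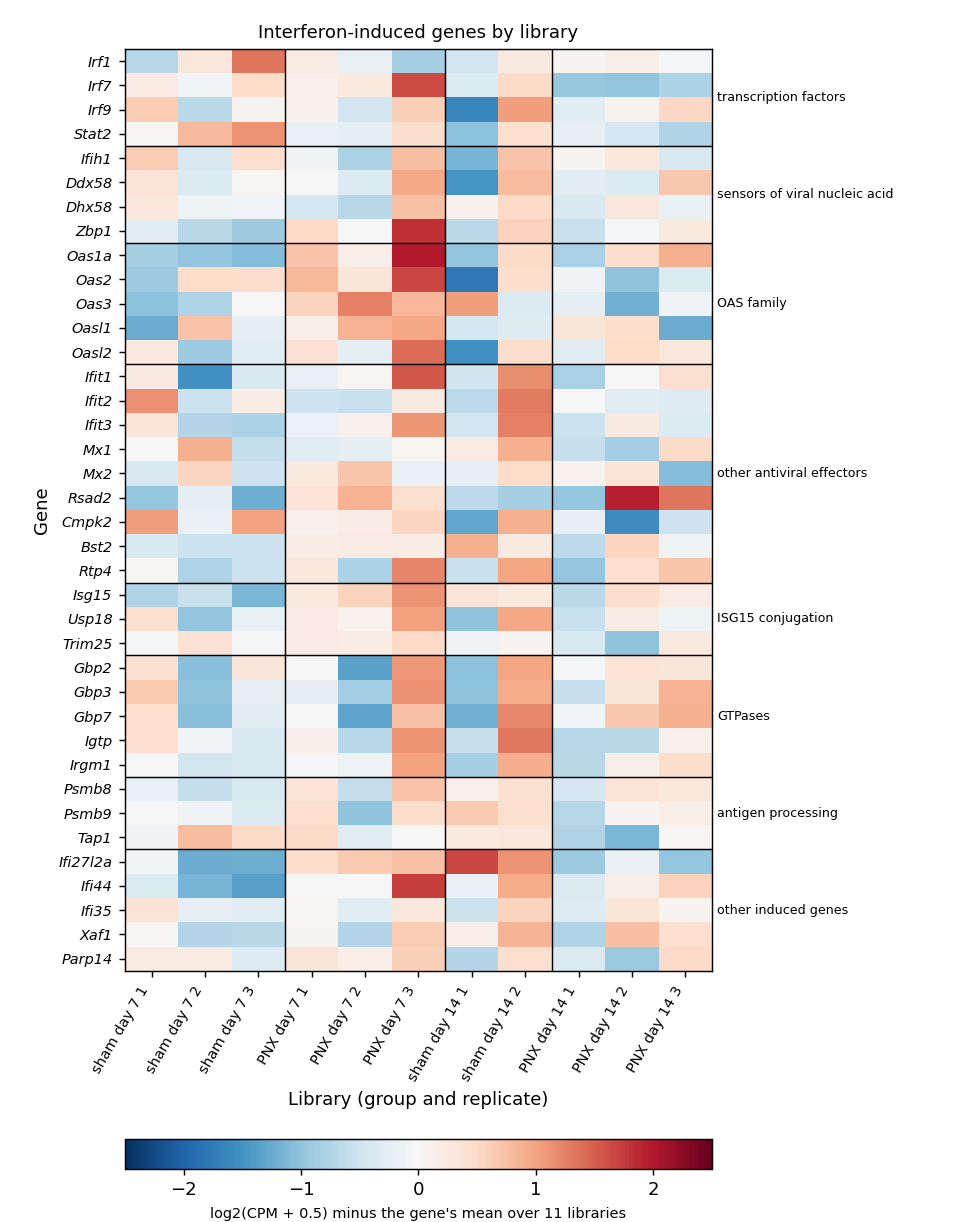
Each row is 1 of the 38 genes, ordered by role, and each column 1 library; colour gives log2(CPM + 0.5) minus that gene's mean over the 11 libraries, from blue (low) to red (high). PNX day 7 replicate 3 and sham day 14 replicate 2 are red in most rows, and sham day 14 replicate 1 holds the lowest value of all 11 libraries in 11 rows.

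At day 7, the earlier of the times after surgery, 31 of the 38 members were higher in PNX than in sham and 7 were lower. The median log2 fold change of the members was 0.51, against 0.03 over all 16011 genes, of which 51.7% were higher. No member passed an adjusted p of 0.05 in edgeR's quasi-likelihood test, a threshold that 0.0375% of all genes passed. At an unadjusted p under 0.05, 10 members were higher and 0 were lower, and of all genes 4.66% were higher and 8.07% lower at that level. DESeq2 called 5 members higher (Ifi27l2a, Isg15, Ifi44, Oas1a and Zbp1), against 0.824% of all genes. With sample weights, limma voom called 3 of these higher (Ifi27l2a, Isg15 and Oas1a), against 1.56% of all genes. In 8 members every PNX library lay above every sham library (Zbp1, Oas1a, Oas3, Rsad2, Bst2, Isg15, Ifi27l2a and Ifi44), which is 21.1% of the members, against 8.47% of all genes. Without PNX day 7 replicate 3 the members' median was 0.23.

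At day 14 the balance was the other way round. Of the 38 members, 8 were higher in PNX and 30 were lower, with a median log2 fold change of -0.35, against -0.07 over all genes, of which 54.8% were lower. No member passed the adjusted threshold in edgeR, which 0.00625% of all genes passed. At an unadjusted p under 0.05, 1 member was higher (Rsad2) and 3 were lower (Ifi27l2a, Irf7 and Tap1), with 3.19% of all genes higher and 3.63% lower at that level. DESeq2 called 1 member lower (Ifi27l2a), against 0.275% of all genes, and limma voom called 0 members and no other gene. In 4 members every PNX library lay below both sham libraries (Irf7, Psmb9, Tap1 and Ifi27l2a; 10.5%, against 7.08% of all genes). This direction rested on a single control library: without sham day 14 replicate 2 the median was 0.46, with 27 members higher and 11 lower, and without sham day 14 replicate 1 it was -0.65. Without PNX day 14 replicate 1 it was -0.15. Fitted on total counts instead of TMM factors, the median of all genes was 0.21 at day 7 and -0.26 at day 14, and 32 members were higher at day 7 and 33 lower at day 14.

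**Figure D2:**
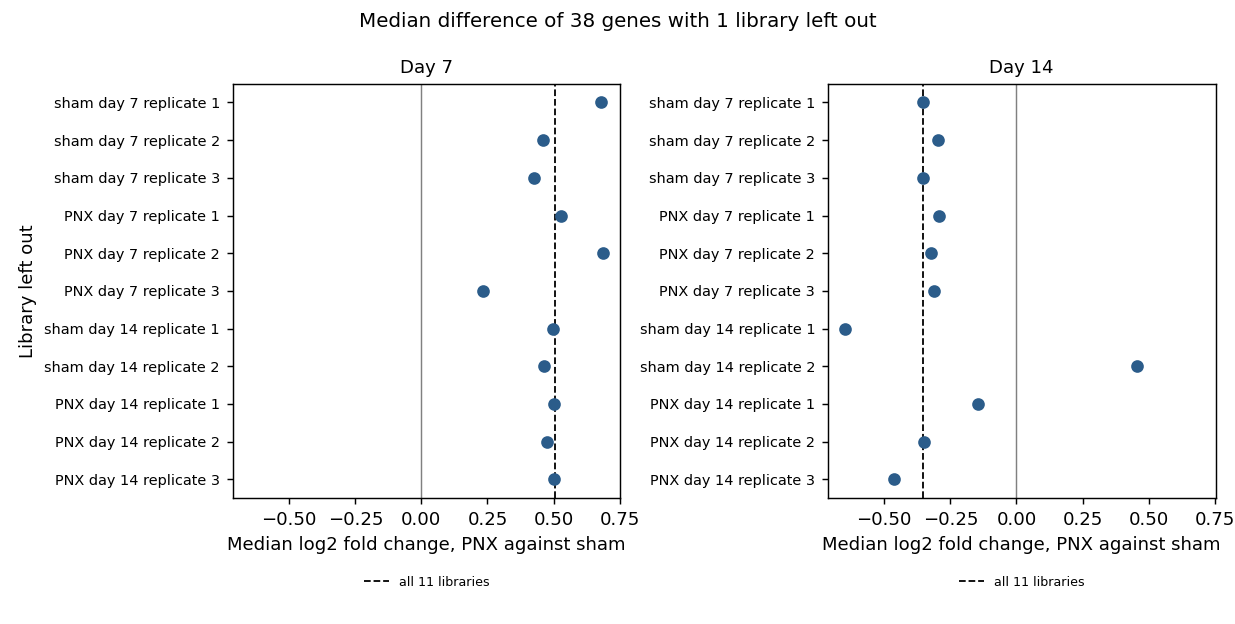
Points give the median log2 fold change (PNX against sham) of the 38 genes when the library named on the vertical axis is left out, and the dashed line the value with all 11 libraries. At day 7 every point is above 0, the lowest at 0.23 without PNX day 7 replicate 3; at day 14 the point without sham day 14 replicate 2 lies at 0.46, on the other side of 0 from the rest.

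Among the transcription factors, Irf7 had the smallest p at both days. IRF7 is the master regulator that amplifies interferon production, and its gene lies at chr7:141262706-141266481 in mm10, where it overlaps Phrf1 on the other strand. Its levels were 24.4, 20.1 and 29.2 CPM in sham day 7 and 23.2, 25.0 and 66.3 CPM in PNX day 7. They were 16.7 and 29.6 CPM in sham day 14 and 10.7, 10.4 and 12.1 CPM in PNX day 14. The day 7 groups overlapped, with only PNX replicate 3 above all sham libraries, whereas at day 14 all PNX libraries lay below both sham libraries. The log2 fold change was 0.69 ± 0.37 (SE, adjusted p = 0.474) at day 7, or 0.05 without PNX day 7 replicate 3, and -1.14 ± 0.42 (adjusted p = 0.594) at day 14, or -0.69 without sham day 14 replicate 2. Irf1, which interferon gamma induces most directly, Irf9 and Stat2, the partners in the STAT complex, had log2 fold changes of -0.66 to 0.10 at day 7 and -0.38 to 0.07 at day 14, and in all of them the groups overlapped.

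Of the sensors, Zbp1 stood out at day 7. ZBP1 detects left-handed Z-form nucleic acid and can start necroptosis, and its gene lies at chr2:173206612-173218923. Its levels were 13.5, 9.85 and 8.58 CPM in sham day 7 and 23.3, 16.4 and 59.2 CPM in PNX day 7, so that the groups did not overlap. In sham day 14 they were 10.05 and 24.6 CPM, and in PNX day 14 they were 10.9, 15.7 and 19.3 CPM, all within the range of the sham pair. PNX differed from sham by log2 1.67 ± 0.44 (adjusted p = 0.117) at day 7, or 0.96 without PNX day 7 replicate 3, and -0.24 ± 0.49 (adjusted p = 0.929) at day 14.

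The 3 RNA helicases that sense viral RNA differed less. For Dhx58, which codes for LGP2, the levels were 9.55, 7.12 and 7.33 CPM in sham day 7 and 5.54, 4.60 and 13.2 CPM in PNX day 7. At day 14 they were 8.33 and 11.02 CPM in sham and 5.81, 9.52 and 6.81 CPM in PNX. Both pairs of groups overlapped, and the log2 fold changes were 0.02 ± 0.44 and -0.48 ± 0.49 (adjusted p = 0.989 and 0.862). Ifih1 (MDA5) and Ddx58 (RIG-I) had values of -0.13 and 0.33 at day 7 and -0.09 and 0.02 at day 14.

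The OAS family, whose enzymes make the messenger that switches on RNase L, was higher after PNX at day 7 in 5 of 5 members, by log2 0.98 to 2.24. Oas1a (chr5:120896256-120907521) had 8.67, 7.75 and 7.18 CPM in sham day 7 and 26.2, 17.9 and 64.0 CPM in PNX day 7. It had 7.75 and 22.3 CPM in sham day 14 and 8.81, 21.5 and 29.9 CPM in PNX day 14. The 3 sham libraries of day 7 were close together and the lowest PNX library was above all of them, while the day 14 groups overlapped. The log2 fold change at day 7, 2.24 ± 0.50, had the smallest adjusted p of the members (0.0799), and it was 1.55 without PNX day 7 replicate 3. Over the 22 other settings its adjusted p ranged from 0.00276 in DESeq2 to 0.370 without sham day 7 replicate 3, and 5 of them passed, among them the fits without sham day 14 replicate 1 (0.0464) or replicate 2 (0.0487). The day 14 difference was 0.36 ± 0.54 (adjusted p = 0.904). Oas1a shares reads with near-identical copies such as Oas1g if the counting split them, so its level is uncertain.

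Oas3, a long family member that responds to long double-stranded RNA, was measured on few counts. It had 0.441, 0.629 and 1.40 CPM in sham day 7, from 3, 3 and 9 counts, and 2.35, 4.09 and 2.93 CPM in PNX day 7, from 14, 16 and 22 counts. Levels at day 14 were 3.45 and 1.03 CPM in sham and 1.12, 0.334 and 1.32 CPM in PNX. The groups were apart at day 7 and overlapped at day 14, where the first sham library was high and the second was within the PNX range. Its difference was log2 1.98 ± 0.93 (adjusted p = 0.388) at day 7 and -1.38 ± 1.03 (adjusted p = 0.820) at day 14, or -0.11 without sham day 14 replicate 1. Oas2, Oasl1, whose product lacks the enzyme activity, and Oasl2 overlapped between groups at both days.

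Rsad2 was the member with the largest positive difference at day 14. It codes for viperin, an enzyme that makes a chain-terminating nucleotide, and lies at chr12:26442746-26456452 beside Cmpk2, whose product supplies its substrate. Its levels were 9.55, 16.3 and 7.96 CPM in sham day 7 and 24.5, 35.3 and 25.3 CPM in PNX day 7, which did not overlap. They were 12.1 and 10.5 CPM in sham day 14 and 9.56, 75.5 and 49.0 CPM in PNX day 14, where replicate 1 lay below both sham libraries and the other two far above them. Rsad2 differed by log2 1.40 ± 0.54 (adjusted p = 0.269) at day 7, 1.87 ± 0.63 (adjusted p = 0.531) at day 14 and 1.63 ± 0.42 (adjusted p = 0.115) in the mean of both days. For that mean, 3 of 21 other settings passed, including DESeq2 (adjusted p = 0.0120) and the fit without PNX day 14 replicate 1 (0.0128), and the highest adjusted p was 0.578 in limma voom. Its neighbour Cmpk2 was lower after PNX at both days, with log2 fold changes of -0.35 ± 0.47 and -0.89 ± 0.53 (adjusted p = 0.809 and 0.779), opposite in sign to Rsad2. The PNX day 14 libraries with high Rsad2, replicates 2 and 3, were those of their group without counts on the Y-linked genes. The other libraries without such counts, sham day 7 replicate 3 and sham day 14 replicate 1, had 7.96 and 12.1 CPM of Rsad2. With covariates for X and Y transcripts the value of Rsad2 was 0.84 at day 14, and its mean over days was 1.05.

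Bst2, which codes for tetherin, a protein that holds budding virus on the cell surface, had values that were close together within the groups of day 7. They were 63.5, 57.0 and 57.0 CPM in sham and 95.3, 95.6 and 94.8 CPM in PNX. At day 14 they were 154 and 97.8 CPM in sham and 52.5, 121 and 78.0 CPM in PNX. The day 7 groups did not overlap, and the day 14 groups did. PNX and sham differed by log2 0.76 ± 0.34 (adjusted p = 0.362) at day 7 and -0.73 ± 0.37 (adjusted p = 0.747) at day 14, or -0.19 without sham day 14 replicate 1. The other antiviral effectors, which include the RNA-binding IFIT proteins (Ifit1, Ifit2, Ifit3), the dynamin-like Mx1 and Mx2, Cmpk2 and the chaperone Rtp4, overlapped between groups at both days. They ranged from -0.61 (Ifit2) to 1.15 (Ifit1) at day 7 and from -1.03 (Mx1) to -0.24 (Rtp4) at day 14. Reads of Ifit3 and its near copy Ifit3b may be divided between the genes.

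ISG15 is a ubiquitin-like protein that is attached to other proteins and also secreted, and Isg15 lies at chr4:156199424-156200818. Its levels were 23.1, 26.8 and 17.6 CPM in sham day 7 and 46.8, 58.0 and 86.0 CPM in PNX day 7. They were 49.7 and 46.8 CPM in sham day 14 and 24.4, 53.3 and 45.7 CPM in PNX day 14. All PNX libraries lay above all sham libraries at day 7, and the sham libraries of day 14 were at the level of the lowest PNX library of day 7. The log2 fold change was 1.55 ± 0.35 (adjusted p = 0.0843) at day 7, for which DESeq2 gave 0.00479 and limma voom 0.0287. It was -0.34 ± 0.38 (adjusted p = 0.872) at day 14. Of 22 other settings for day 7, 3 passed, including the fit without sham day 14 replicate 1 (adjusted p = 0.0464), and the highest adjusted p was 0.419, without sham day 7 replicate 3.

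Usp18, whose product removes ISG15 and also dampens the type I receptor, had 36.9, 13.8 and 24.7 CPM in sham day 7 and 32.5, 29.6 and 57.5 CPM in PNX day 7. In sham day 14 it had 13.8 and 55.2 CPM and in PNX day 14 it had 18.7, 31.9 and 25.5 CPM. The groups overlapped at both days, and the 2 sham libraries of day 14 enclosed all PNX values. Its log2 fold change at day 14, -0.48 ± 0.47 (adjusted p = 0.854), was 0.78 without sham day 14 replicate 2. At day 7 it was 0.73 ± 0.42 (adjusted p = 0.519), and Trim25, which codes for a ubiquitin and ISG15 ligase, had 0.26 and -0.39 at days 7 and 14.

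**Figure D3:**
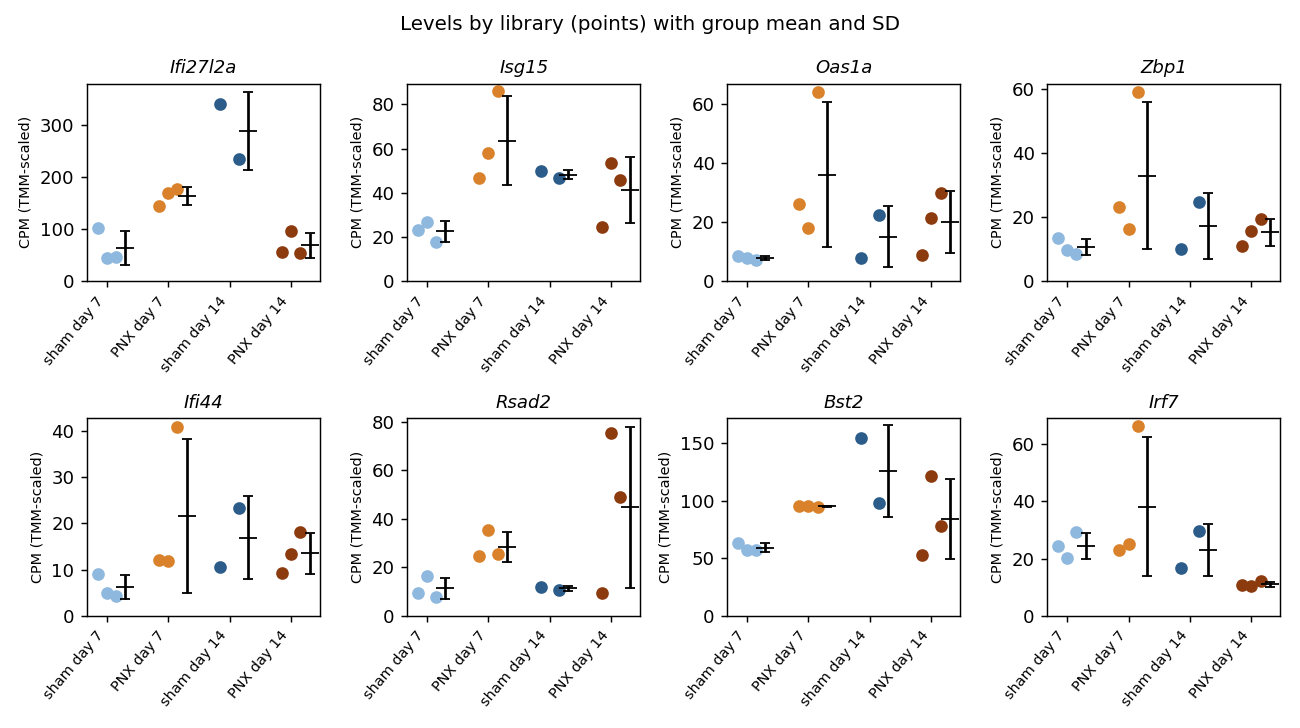
Each panel gives the CPM (TMM-scaled) of 1 gene in every library, coloured by group, with the group mean and SD as black bars; the axes start at 0 and differ between panels. Ifi27l2a, Isg15, Oas1a, Zbp1, Ifi44, Rsad2 and Bst2 have all PNX points above all sham points at day 7, and Ifi27l2a and Irf7 have all PNX points below both sham points at day 14.

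Among the interferon-inducible GTPases, Irgm1, an immunity-related GTPase that governs autophagy, had 21.0, 15.1 and 15.8 CPM in sham day 7 and 20.3, 19.2 and 42.3 CPM in PNX day 7. At day 14 it had 11.5 and 39.6 CPM in sham and 12.7, 23.2 and 28.6 CPM in PNX. The groups overlapped at both days, and the log2 fold changes were 0.71 ± 0.42, or 0.26 without PNX day 7 replicate 3, and -0.29 ± 0.46 (adjusted p = 0.532 and 0.910).

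Igtp, another GTPase of that family, overlaps Irgm2 on the same strand. It had 119, 85.9 and 69.1 CPM in sham day 7 and 100.3, 54.7 and 195 CPM in PNX day 7. At day 14 it had 59.7 and 224 CPM in sham and 54.7, 55.6 and 98.2 CPM in PNX, so that 1 sham library was far above all others and the other one within the PNX range. For Igtp the log2 fold change at day 14 was -1.04 ± 0.50 (adjusted p = 0.731), and 0.13 without sham day 14 replicate 2. At day 7 it was 0.39 ± 0.45 (adjusted p = 0.784). The guanylate-binding proteins Gbp2, Gbp3 and Gbp7, which coat bacteria and vacuoles and whose sequences are alike enough for reads to be shared, had log2 fold changes of 0.26 to 0.34 at day 7 and of -0.11 to 0.10 at day 14. For Gbp2 the SD was near the mean in PNX day 7 (292 ± 218 CPM, n = 3) and in sham day 14 (309 ± 264 CPM, n = 2).

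In antigen processing, the proteasome subunit gene Psmb8 had 90.1, 66.8 and 77.9 CPM in sham day 7 and 129, 67.5 and 167 CPM in PNX day 7. Day 14 values were 111 and 133 CPM in sham and 76.3, 129.6 and 123 CPM in PNX. The groups overlapped at both days, with log2 fold changes of 0.69 ± 0.34, or 0.39 without PNX day 7 replicate 3, and -0.25 ± 0.37 (adjusted p = 0.414 and 0.903).

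Tap1, which codes for a subunit of the peptide transporter that feeds class I molecules, lies at chr17:34187553-34197225, where its start overlaps that of Psmb9 on the other strand. Its levels were 23.2, 42.3 and 34.5 CPM in sham day 7 and 34.6, 20.4 and 24.5 CPM in PNX day 7. They were 29.3 and 30.2 CPM in sham day 14 and 14.4, 10.9 and 25.0 CPM in PNX day 14. The day 7 groups overlapped, and at day 14 each PNX library lay below both sham libraries. In the fit, Tap1 differed by log2 -0.27 ± 0.37 (adjusted p = 0.818) at day 7 and -0.92 ± 0.41 (adjusted p = 0.706) at day 14. Psmb9, a further proteasome subunit gene, was also below both sham libraries in each PNX library of day 14 (-0.77 ± 0.43, adjusted p = 0.760). The strand setting of the counts is not given in the sources used here, so reads of Tap1 and Psmb9 near their shared start cannot be told apart.

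Ifi27l2a (chr12:103442167-103443680) had the largest difference of the members at day 14. Its levels were 102, 45.0 and 45.7 CPM in sham day 7 and 145, 169 and 177 CPM in PNX day 7. They were 341 and 235 CPM in sham day 14 and 55.9, 96.1 and 54.2 CPM in PNX day 14. The PNX libraries were all above sham at day 7 and all below it at day 14, and neither pair of groups overlapped. The log2 fold change was 1.43 ± 0.38 (adjusted p = 0.117) at day 7, with adjusted p of 0.0137 in DESeq2 and 0.0182 in limma voom. It was -2.21 ± 0.41 (adjusted p = 0.0666) at day 14, with 0.000175 in DESeq2 and 0.344 in limma voom. Of 22 other settings for day 7, 3 passed, including the fit without sham day 7 replicate 1, the highest of its group (adjusted p = 0.0169), and the highest adjusted p was 0.603, without sham day 7 replicate 3. For day 14, 8 of 22 passed, and the highest adjusted p was 0.436, without PNX day 14 replicate 3. The 8 included the fits without sham day 7 replicates 1, 2 and 3 (0.0491, 0.0391 and 0.0433) and that without sham day 14 replicate 2 (0.0347).

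Blood cell markers are given beside this gene, since the sort should have removed such cells. The sham libraries of day 14 were highest both in Ifi27l2a and in the summed CPM of the 10 haematopoietic markers. Of these markers, 10 of 10 were lower in PNX at day 14, with 0 called by edgeR. The sum of the 4 MHC class II antigen-presenting genes was 1592 to 2315 CPM in sham day 14 and 1028 to 2085 CPM in PNX day 14. That of 4 neutrophil markers was 34.5 to 39.0 CPM in sham day 14 and 4.34 to 5.27 CPM in PNX day 14, and Cd3e, Cd3d, Ms4a1, Mzb1, Itgam and Ly6c2 were at 0 in 1 or more PNX libraries of day 14. At day 7, where Ifi27l2a was higher in PNX, 2 of the 10 haematopoietic markers were higher and 8 lower. The 4 neutrophil markers were all higher, with sums of 3.67 to 6.49 CPM in sham and 7.41 to 11.1 CPM in PNX. The 4 MHC class II genes were also higher (median log2 fold change 0.42), with overlapping sums of 130 to 1152 CPM and 263 to 999.5 CPM. All 6 endothelial markers were higher (median 1.17), with overlapping sums of 34.2 to 509.7 CPM and 32.4 to 971 CPM. None of the genes in these lists was called by edgeR at day 7. Of the 5 markers of plasmacytoid dendritic cells, known producers of type I interferon, Siglech, Ccr9, Klk1 and Cox6a2 had at most 4.86 CPM in any library, and Siglech, Klk1 and Cox6a2 were at 0 in some. Tcf4, which mesenchymal cells also express, made up nearly all of that list's sum. The part of these cells in the level of Ifi27l2a was not tested.

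**Figure D4:**
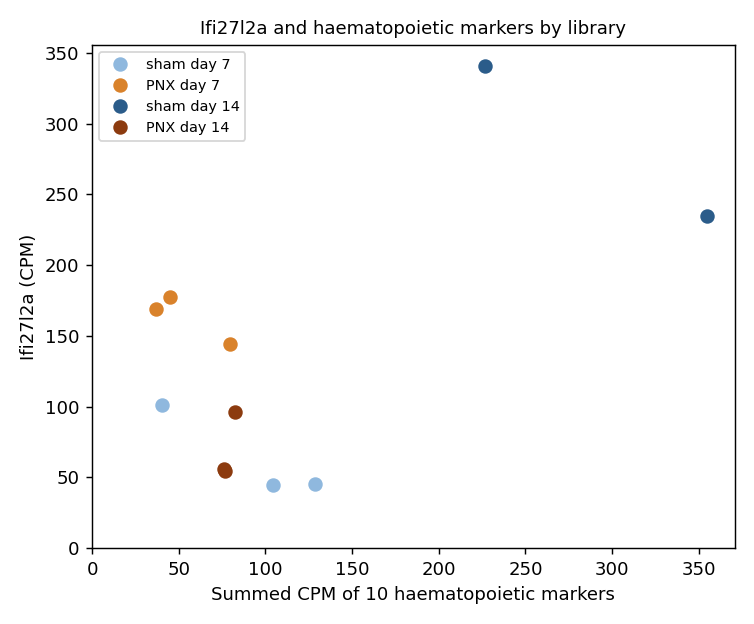
Each point is 1 library, with the summed CPM of 10 haematopoietic markers on the horizontal axis and the CPM of Ifi27l2a on the vertical axis, coloured by group. The 2 sham libraries of day 14 are high on both axes (235 and 341 CPM of Ifi27l2a), while the PNX libraries of day 7 have 145 to 177 CPM of Ifi27l2a at marker sums of 37.1 to 79.4 CPM.

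Ifi44 (chr3:151730922-151749960), whose product is a cytoplasmic protein of the antiviral response, had 9.11, 5.03 and 4.37 CPM in sham day 7 and 12.1, 11.8 and 40.8 CPM in PNX day 7. At day 14 it had 10.6 and 23.2 CPM in sham and 9.19, 13.4 and 18.0 CPM in PNX. The groups were apart at day 7 and overlapped at day 14. This gave a log2 fold change of 1.84 ± 0.50 (adjusted p = 0.120) at day 7, or 1.01 without PNX day 7 replicate 3, and -0.39 ± 0.53 (adjusted p = 0.894) at day 14. Of 22 other settings for day 7, 2 passed, the fit without sham day 7 replicate 1 (0.0447) and DESeq2 (0.0230), and the highest adjusted p was 0.573. Ifi35, the pro-apoptotic Xaf1 and the ADP-ribosyltransferase gene Parp14 had 0.11 to 0.58 at day 7 and -0.36 to -0.14 at day 14, with overlapping groups.

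The interaction of surgery and day tests whether the difference between PNX and sham changed from day 7 to day 14. It was negative, meaning a lower PNX effect at day 14, in 34 of the 38 members and positive in 4, with a median of -0.73 against -0.01 over all genes. No member and 0% of all genes passed the adjusted threshold in edgeR. At an unadjusted p under 0.05, 11 members were negative and 0 positive, with 4.6% of all genes negative and 4.16% positive at that level. DESeq2 called 2 members negative (Ifi27l2a and Isg15), against 0.344% of all genes, and gave no adjusted p for 19, and limma voom called 0 members and no other gene. Ifi27l2a had the smallest p of all 16011 genes, with an interaction of -3.64 ± 0.56 (adjusted p = 0.0724). Of 21 other settings 8 passed, with adjusted p from 7.24e-07 in DESeq2 to 0.341 without PNX day 14 replicate 1. The members' median was -0.20 without sham day 14 replicate 2.

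**Figure D5:**
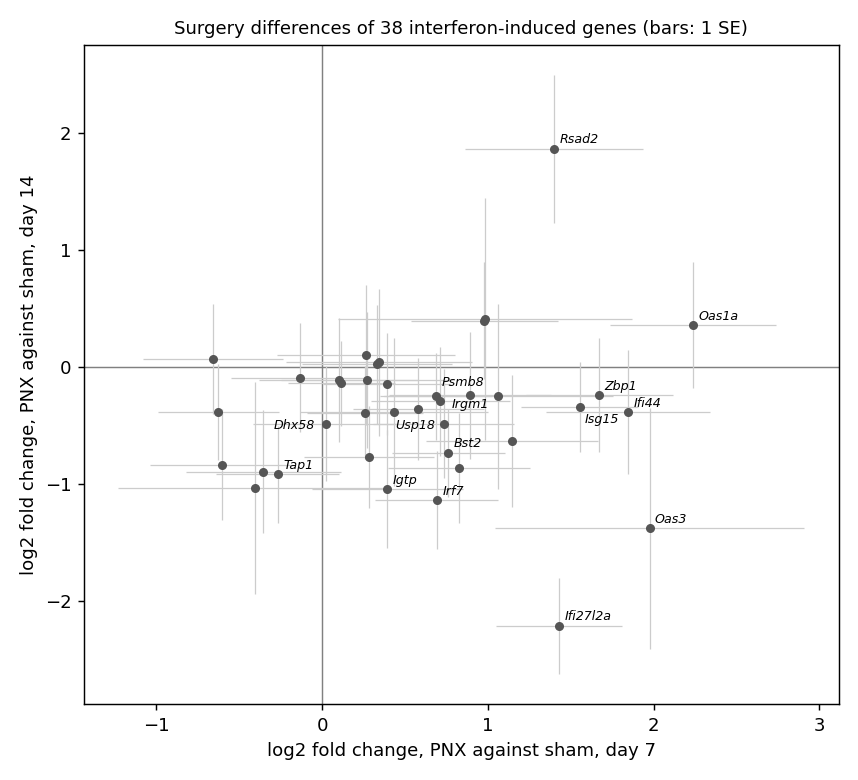
Each point is 1 of the 38 genes, with its log2 fold change (PNX against sham) at day 7 on the horizontal axis and at day 14 on the vertical axis, and grey bars of 1 SE; the 2 comparisons share no library. Most points lie right of 0 and below 0, Ifi27l2a is lowest at 1.43 and -2.21, and Rsad2 is the highest at 1.40 and 1.87.

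The mean of both days, like the interaction, is made from the libraries of both comparisons already given. In it, 22 members were higher and 16 lower after PNX, with a median of 0.09. The median of all genes was -0.04, and 46.6% of them were higher. No member passed the adjusted threshold in edgeR, against 0.194% of all genes. At an unadjusted p under 0.05, 4 members were higher (Rsad2, Oas1a, Isg15 and Zbp1) and 2 lower (Ifit2 and Tap1), against 3.92% and 6.37% of all genes. DESeq2 called 2 higher (Oas1a and Rsad2), against 0.806% of all genes, and limma voom called 0, against 0.0312%.

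The days were also compared within each operation, on the same libraries as above, so these values are not independent of those already given. Within sham, 30 members were higher at day 14 and 8 lower, with a median of 0.37. The median of all genes was 0.05, and 52.5% of them were higher. No member passed in edgeR, against 0.0187% of all genes, with 6 higher at an unadjusted p under 0.05, against 6.32% of all genes. DESeq2 called 2 higher (Ifi27l2a and Bst2), against 1.97% of all genes, and limma voom called 0 members and no other gene. Ifi27l2a was higher by 2.33 ± 0.41 (adjusted p = 0.0695), and 4 of 22 other settings passed. These included the fits without sham day 7 replicate 1 (0.00802) and with sham day 14 replicate 2 left out (0.00634), and the highest adjusted p was 0.522, without the 3 libraries of highest olfactory background. Bst2 was higher by 1.25 ± 0.37 (adjusted p = 0.131), or 0.66 without those 3 libraries, and passed in 2 of 22 settings. The members' median was -0.25 without sham day 14 replicate 2, and 10 of 10 haematopoietic markers were higher in sham at day 14, 1 of them called by edgeR.

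Within PNX, 32 members were lower at day 14 and 6 higher, with a median of -0.51, or -0.05 without PNX day 7 replicate 3. The median of all genes was -0.06, and 54.1% of them were lower. No member and 0% of all genes passed in edgeR, with 5 members lower at an unadjusted p under 0.05, against 3.13% of all genes. DESeq2 called 1 lower (Irf7), against 0.194% of all genes, and limma voom 1 (Ifi27l2a), against 0.181%. Irf7 was lower by 1.81 on the log2 scale (-1.81 ± 0.39, adjusted p = 0.214), or -1.19 without PNX day 7 replicate 3. It passed in 2 of 22 other settings, and its highest adjusted p was 0.991, without PNX day 14 replicate 2. All PNX libraries of day 14 lay below all PNX libraries of day 7.

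Further genes of the pathway were counted from lists. None of the genes in these lists passed the adjusted threshold in edgeR at day 7 or day 14. Of all genes tested, 51.7% were higher at day 7 and 54.8% were lower at day 14. The 21 interferon ligand genes did not reach the level for testing: they had 112 counts in all over the 11 libraries, and none exceeded 1.26 CPM in any library. Of 6 receptor genes, 4 were lower after PNX at each day. Ifnar1 had a log2 fold change of 1.03 ± 0.43 at day 14 (adjusted p = 0.687). For Ifnar2 it was -0.59 ± 0.34 at day 14 (adjusted p = 0.767). Ifngr1 was at -0.77 ± 0.41 at day 7 (adjusted p = 0.467) and -0.70 ± 0.45 at day 14 (adjusted p = 0.795). Of 9 genes of JAK-STAT and IRF signalling, 7 were lower at day 7, with Irf8, an interferon regulatory factor of blood cells, at -1.26 ± 0.32 (adjusted p = 0.106) and Tyk2 at -1.16 ± 0.44, whereas Jak2 was at 0.98 ± 0.33. Of 11 genes of upstream sensing, 6 were higher and 5 lower at day 7, and 4 were higher and 7 lower at day 14. Mb21d1, which codes for the DNA sensor cGAS, was at 1.41 ± 0.49 at day 7 (adjusted p = 0.212). At day 14 it was at 1.35 ± 0.55 (adjusted p = 0.665). Mavs was at -1.05 ± 0.44 at day 7 (adjusted p = 0.314). Tlr7, with at most 25 counts in a library, was at -3.76 ± 1.37 at day 14 (adjusted p = 0.588).

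Of 9 genes listed as negative regulators, 7 were lower after PNX at day 7, with a median of -0.39. The list includes Isg20, an interferon-induced gene that is not an inhibitor of the pathway, at -0.07 ± 0.37. Socs1, a feedback inhibitor of the JAK kinases, had 26.9, 54.9 and 84.1 CPM in sham day 7 and 10.1, 8.69 and 9.47 CPM in PNX day 7, without overlap, and a log2 fold change of -2.48 ± 0.61 (adjusted p = 0.107). Socs3, which inhibits signalling of interleukin 6 and related cytokines, had 222, 562 and 1797 CPM in sham day 7 and 132, 109 and 218 CPM in PNX day 7 (-2.41 ± 0.59, adjusted p = 0.102). The sham libraries of day 7 differed widely among themselves in both, and the sham libraries of day 14 were near the PNX level of day 7 at 8.04 and 10.8 CPM for Socs1 and 163 and 197 CPM for Socs3.

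Targets of interferon gamma, 15 of them tested, were higher in 12 at day 7 (median 0.72) and lower in 9 at day 14 (median -0.66). Cxcl10, a chemokine for activated T cells, had 13.4, 27.0 and 13.6 CPM in sham day 7 and 52.5, 65.2 and 23.6 CPM in PNX day 7, which overlapped, and a log2 fold change of 1.47 ± 0.43 (adjusted p = 0.147). At day 14 it had 53.7 and 53.1 CPM in sham and 22.3, 18.7 and 33.6 CPM in PNX, without overlap (-1.20 ± 0.46, adjusted p = 0.614). Cxcl9, a chemokine for the same receptor, had 14.6 and 23.8 CPM in sham day 14 and 1.87, 2.00 and 1.98 CPM in PNX day 14 (-3.36 ± 0.62, adjusted p = 0.0666), and -0.04 ± 0.54 at day 7. Of 34 further interferon-induced genes, 26 were higher at day 7 (median 0.41), and 18 were lower at day 14 (median -0.03). Among 12 genes of class I and the proteasome, 7 were higher at day 7 (median 0.13) and 10 were lower at day 14 (median -0.43). Tap2, the partner of Tap1, was at -1.49 ± 0.42 at day 7 (adjusted p = 0.136), against -0.27 for Tap1. Psme2 was at 0.66 ± 0.33 at day 7 (adjusted p = 0.429).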

How the data were processed

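The deposited values are read counts per gene made by the authors, 1 column for each of 11 libraries; RNA was taken with a micro column kit and libraries with a low-input kit, per the labels' protocols. The submitters' processing notes name mm10 and bcl2fastq 2.20.0.422; the aligner, counter, annotation and strand setting are not given in the sources used here. Groups came from the labels. In R 4.3.3, edgeR 4.0.16 (filterByExpr by group, which removed 8400 genes; TMM; a robust quasi-likelihood model with a mean for each of 4 groups, fitted to the 11 libraries together) gave F tests, adjusted by Benjamini-Hochberg over 16011 genes, with a threshold of 0.05. The SE is the absolute log2 fold change divided by the square root of F. Alternatives included DESeq2 1.42.0, limma 3.58.1 (voom with sample weights), other scalings, filters, covariates and each library left out in turn. The steps were tested on simulated data.

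Members, lists and roles were chosen with earlier results of these data known. Values in every library are given, within each role, for the member of smallest p at each day, and for the 6 members of smallest p per day. In each pathway list, values are given for some of up to 3 genes of smallest p. Adjusted p is from edgeR where no other tool is named. TMM factors enter each CPM value, but the olfactory receptor CPM is a plain share of a library's total. All 38 members were found in GENCODE M21 (mm10); 16 overlap another gene, 5 of them on the same strand (Irf9, Rtp4, Gbp7, Igtp and Parp14), so their reads may be shared. No 2 columns held identical values.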

Additional observations from a re-analysis of the deposited data

Results flagged for a closer look

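Ifi27l2a is listed for a closer look because its PNX libraries were all above the sham libraries at day 7 and all below them at day 14. The test of that difference, the interaction of surgery and day, gave -3.64 ± 0.56 on the log2 scale with an adjusted p of 0.0724 in edgeR. The interaction kept its sign under all settings tried and passed the threshold in 8 of 21 of them. The sham libraries of day 14, of which there were 2, held both the highest levels of this gene and the highest summed CPM of haematopoietic markers. The part of those cells was not tested.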

How the results depend on the processing

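With edgeR as reported, 0 members passed the threshold in any of the 6 comparisons. DESeq2 called 5 at day 7, 1 at day 14, 2 in the mean of both days, 2 in the interaction, 1 between days in PNX and 2 between days in sham; over all 16011 genes it called 457, 109, 304, 102, 58 and 669. limma voom called 3 at day 7 and 1 between days in PNX. Total counts, and X and Y covariates, gave 1 in the interaction (Ifi27l2a). Without the filter on low counts, 1 member passed in each comparison except the days in PNX, where 0 did: Oas1a at day 7, Rsad2 in the mean, Ifi27l2a in the rest. With only the groups compared, 1 passed at day 14 and 2 between days in PNX (Ifi27l2a and Irf7). The background covariate gave 1 at day 14 (Ifi27l2a). Apart from DESeq2 and limma voom, the shares of all genes that passed are not given for these settings. Nor are they given for the fits with 1 library left out. These calls can therefore not be told apart from a change in calls over all genes.

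With 1 library left out, the number of members past the threshold ranged from 0 to 2 at day 7 and between days in sham, and from 0 to 1 at day 14, in the mean and in the interaction. The members' median at day 14 then ranged from -0.65 to 0.46, that of the interaction from -1.04 to -0.20, and that of the days in sham from -0.25 to 0.74. At day 14, Usp18 ranged from -1.09 to 0.78 and Igtp from -1.64 to 0.13. X and Y covariates gave 0.38 for Usp18 at day 14 and 0.0251 for Ifit2 in the mean of both days (-0.72 as reported).

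The replicate number as a block (replicate block) changed no call: the members' median was 0.50 at day 7 and -0.45 at day 14. Whether the numbers pair the libraries is not known, since no label says what they mark. The correlations of same-numbered libraries' deviations were -0.12, 0.53 and 0.34 at day 7 and 0.10 and 0.18 at day 14. With 2 or 3 libraries in a group, such correlations cannot decide it. Depth limits the lowest members: Oas3 had 2 to 22 counts per library.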
